A study of Homo sapiens with 8 samples.

Results

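The 31 genes described here encode the enzymes of cholesterol synthesis, the SREBP regulators that control them, a sterol carrier and the enzymes of fatty acid synthesis. They are listed by name, and all 31 were found among the 60725 genes of the count table by their Ensembl identifiers. RNA-seq measured polyadenylated RNA of HAP1, a near-haploid human cell line, in 8 libraries. All 8 came from clone SC9, a single clone that expresses dCas9-KRAB, a catalytically inactive Cas9 fused to a repressor domain, under an EF1a promoter. All 8 cultures were transduced with a guide RNA in a lentiviral vector, selected with puromycin and harvested 144 h after transduction. The 3 control libraries carried a guide RNA against ADAM22, the 3 NELFE knockdown libraries one against NELFE and the 2 NELFB knockdown libraries one against NELFB. A control without a guide RNA was not analysed here. The libraries held from 22037423 to 24444185 counted reads.

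Cholesterol is built from acetyl-CoA through mevalonate, the isoprenoid farnesyl diphosphate, squalene and lanosterol. The transcription factors SREBP-1 and SREBP-2, encoded by SREBF1 and SREBF2, are made as membrane proteins of the endoplasmic reticulum. When sterols are scarce, SCAP escorts them to the Golgi for proteolytic release. When sterols are plentiful, INSIG1 and INSIG2 hold the complex back, and INSIG1 is itself a target of SREBP. The released factors bind sterol regulatory elements, often beside binding sites of NF-Y and Sp1. NELFE and NELFB are subunits of negative elongation factor (NELF), which holds RNA polymerase II paused shortly after it has begun a transcript.

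To show the DNA in front of the genes on which the results turn, 200 bases before the annotated start are printed for 6 members, 5′ to 3′ on the strand of the gene (RefSeq, GRCh38.p14). They are MSMO1, HSD17B7, DHCR7 and INSIG1, 4 of the members that fell, SC5D, the only member that rose, and SREBF2, the only one of the 27 members searched with a match to the sterol regulatory element. For DHCR7 and SC5D, which have 2 annotated starts each, the one whose window held most NF-Y boxes was used. Capitals mark the NF-Y box (CCAAT, or ATTGG on the other strand), the E-box (CACGTG) and the sterol regulatory element (TCACCCCAC).
MSMO1, chr4:165327469-165327668, plus strand: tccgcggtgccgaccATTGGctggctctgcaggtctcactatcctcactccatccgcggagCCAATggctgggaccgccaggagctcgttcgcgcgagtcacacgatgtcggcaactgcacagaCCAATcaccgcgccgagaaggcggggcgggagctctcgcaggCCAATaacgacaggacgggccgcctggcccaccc
HSD17B7, chr1:162790502-162790701, plus strand: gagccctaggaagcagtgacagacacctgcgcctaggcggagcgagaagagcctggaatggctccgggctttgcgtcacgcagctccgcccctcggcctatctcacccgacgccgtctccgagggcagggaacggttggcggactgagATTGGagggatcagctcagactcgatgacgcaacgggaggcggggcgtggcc
DHCR7, chr11:71448394-71448593, minus strand: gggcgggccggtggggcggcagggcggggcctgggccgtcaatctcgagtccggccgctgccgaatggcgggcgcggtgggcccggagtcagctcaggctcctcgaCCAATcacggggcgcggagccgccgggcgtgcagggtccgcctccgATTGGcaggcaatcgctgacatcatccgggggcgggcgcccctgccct
INSIG1, chr7:155297678-155297877, plus strand: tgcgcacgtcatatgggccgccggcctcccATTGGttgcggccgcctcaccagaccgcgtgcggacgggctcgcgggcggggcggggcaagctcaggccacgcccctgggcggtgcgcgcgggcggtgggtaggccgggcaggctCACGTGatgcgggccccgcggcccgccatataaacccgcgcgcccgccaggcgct
SC5D, chr11:121292571-121292770, plus strand: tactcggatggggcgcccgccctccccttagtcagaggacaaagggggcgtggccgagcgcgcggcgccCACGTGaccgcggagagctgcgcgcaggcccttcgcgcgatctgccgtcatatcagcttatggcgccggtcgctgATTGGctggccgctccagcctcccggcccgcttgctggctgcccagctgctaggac
SREBF2, chr22:41832905-41833104, plus strand: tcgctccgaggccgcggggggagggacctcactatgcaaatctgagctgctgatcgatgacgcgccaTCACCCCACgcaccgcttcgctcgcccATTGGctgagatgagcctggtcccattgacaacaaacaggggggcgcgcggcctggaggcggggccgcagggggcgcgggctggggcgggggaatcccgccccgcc

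The knockdown was checked first. NELFE mRNA stood at 50.5, 49.4 and 48.0 CPM (counts scaled to a common library size after TMM normalisation) in control libraries 1 to 3, at 2.41, 2.36 and 2.98 CPM in the NELFE knockdown and at 61.2 and 56.8 CPM in the NELFB knockdown. NELFB mRNA stood at 74.3, 72.6 and 79.0 CPM in control, at 63.3, 63.9 and 64.0 CPM in the NELFE knockdown and at 3.07 and 2.77 CPM in the NELFB knockdown. Each target was thus low only in the libraries labelled with its knockdown.

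Libraries of a group were not equally close to each other. The first principal component of all tested genes, with 52.4% of the variance, separated the 3 control libraries (-0.45, -0.41 and -0.46) from the 5 knockdown libraries (0.11 to 0.45). The second, with 20.2%, set control 1 (-0.63) apart from control 2 and 3 (0.07 and 0.42), and NELFE knockdown 3 (0.60) apart from NELFE knockdown 1 and 2 (-0.14 and -0.16). The counts of members over the whole pathway are therefore also given without control 1 and NELFE knockdown 3, a choice made after the data were seen.

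In control cells the pathway was well expressed. The level of 29 members lay above the median of all tested genes and that of 14 above the 90th percentile. Per exon length, SCD had the highest level, at 758 ± 41.2 TPM (SD, n = 3), followed by ACLY at 430 ± 20.8 TPM, EBP at 315 ± 11.1 TPM, FASN at 300.1 ± 35.8 TPM and FDFT1 at 290.1 ± 22.45 TPM, of which the last 3 lay within their spread of each other. The lowest were MVK at 12.7 ± 0.617 TPM, HSD17B7 at 10.959 ± 1.71 TPM and CYP51A1 at 3.25 ± 0.445 TPM. The value of CYP51A1, the lanosterol demethylase, is uncertain, because other genes overlap 3090 of its 4171 exon bases in GENCODE v44, and reads that overlap several genes are not counted. The counts rest on the older v24, so how many of these bases were left out was not examined. In v44 other genes also overlap 2497 of 6627 exon bases of HMGCS1 and 644 of 1768 of EBP. Between control libraries the coefficient of variation had a median of 7.71% over the members, from 2.86% for HMGCS1 to 19.4% for SREBF1.

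Most of the pathway was lower in NELF-depleted cells. All 31 members passed the filter on low counts. With the 5 knockdown libraries set together against control, 18 of the 31 members fell and 1 rose at an adjusted p under 0.05, beside 12.7% of the 16367 tested genes that fell and 13.3% that rose (quasi-likelihood test of edgeR, Benjamini-Hochberg adjusted). Among the 9913 genes with at least 10 CPM in control cells, 17.7% fell and 11.8% rose. The members were chosen with earlier results of these data known, so setting them beside all genes is a description and not a test. The median log2 fold change of the members was -0.36, against -0.00 for all tested genes, and 27 of 31 were below 0. All 5 knockdown libraries lay below all 3 control libraries for 17 members, as for 14.0% of all tested genes, and above them for 1 member, as for 14.7%. The changes were small: 2 members, HSD17B7 and INSIG1, passed 1.5-fold. Without control 1 and NELFE knockdown 3, 19 members fell and 3 rose, beside 20.2% of tested genes that fell and 19.8% that rose.

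**Figure D1:**
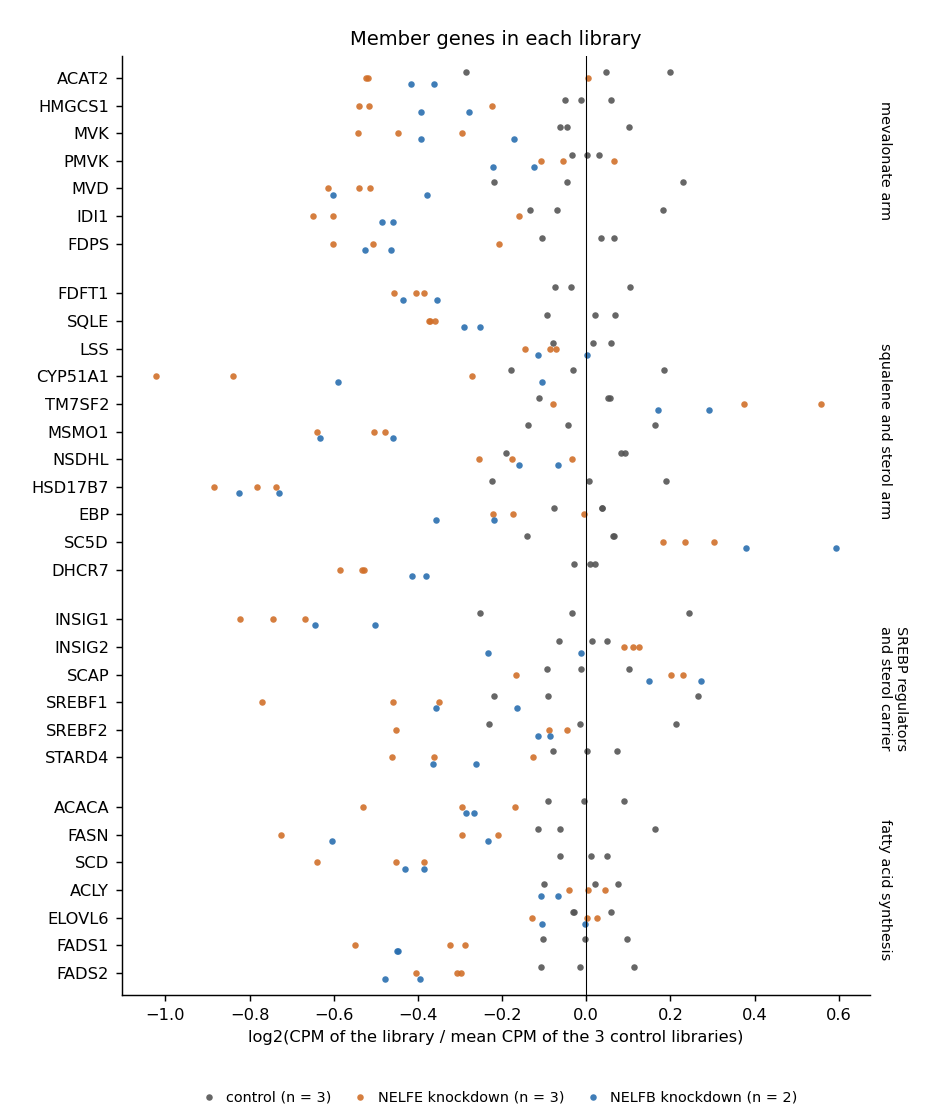
Level of each of the 31 members in each of the 8 libraries, as log2 of its CPM over the mean of the 3 control libraries, in 4 functional groups. Each point is 1 library (grey control, orange NELFE knockdown, blue NELFB knockdown). For 17 members all 5 knockdown points lie left of all 3 control points, and for SC5D all 5 lie to the right.

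In the mevalonate arm, 5 of 7 members fell. HMGCS1, which makes HMG-CoA, stood at 343, 334 and 360 CPM in control, at 242, 238 and 296 CPM in the NELFE knockdown and at 285 and 263 CPM in the NELFB knockdown. It was lower in every knockdown library than in every control library, with a log2 fold change of -0.38 over both knockdowns (standard error 0.08, edgeR adjusted p = 0.00581). MVD, which decarboxylates mevalonate diphosphate, stood at 55.5, 40.7 and 45.8 CPM in control, at 32.5, 33.1 and 30.961 CPM in the NELFE knockdown and at 31.2 and 36.4 CPM in the NELFB knockdown. The groups did not overlap, although control 1 was high, and the log2 fold change was -0.53 (standard error 0.10, edgeR adjusted p = 0.0034). FDPS, which makes farnesyl diphosphate, the branch point to sterols and other isoprenoids, stood at 148, 135 and 151 CPM in control, at 95.3, 102 and 125 CPM in the NELFE knockdown and at 101 and 105 CPM in the NELFB knockdown. NELFE knockdown 3 was the nearest to control, and the log2 fold change was -0.45 (standard error 0.09, edgeR adjusted p = 0.00372). IDI1, the isopentenyl diphosphate isomerase, also came nearest to control in NELFE knockdown 3, with 127.8 CPM beside 130.1 CPM in control 1, and fell by 0.46 on the log2 scale (standard error 0.11, edgeR adjusted p = 0.0105). MVK, the mevalonate kinase, fell by 0.36 on the log2 scale (standard error 0.09, edgeR adjusted p = 0.0148). That call was lost when control 3 was left out. ACAT2, the cytosolic thiolase, had -0.35 (edgeR adjusted p = 0.0706) with overlapping groups, and PMVK, the phosphomevalonate kinase, had -0.08 (edgeR adjusted p = 0.458). With the replicate number as a block, ACAT2 was called lower (edgeR adjusted p = 0.00752).

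In the squalene and sterol arm, 5 of 11 members fell, 1 rose and 5 did not pass the test. FDFT1, the squalene synthase, stood at 387, 341 and 351 CPM in control, at 262, 275 and 272 CPM in the NELFE knockdown and at 281 and 266 CPM in the NELFB knockdown. The knockdown libraries were close to each other and all below control, with a log2 fold change of -0.41 (standard error 0.06, edgeR adjusted p = 0.00129). SQLE, the squalene epoxidase, stood at 161, 180.2 and 174 CPM in control, at 134, 133 and 133 CPM in the NELFE knockdown and at 140.4 and 144 CPM in the NELFB knockdown. Again no library of one group reached the other (log2 fold change -0.33, standard error 0.06, edgeR adjusted p = 0.0035). MSMO1, a sterol C4-methyl oxidase that acts after lanosterol, stood at 125, 102 and 109 CPM in control, at 78.7, 71.8 and 80.2 CPM in the NELFE knockdown and at 81.3 and 72.1 CPM in the NELFB knockdown. Both knockdowns were at the same level, with log2 fold changes of -0.54 in each.

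HSD17B7, which reduces the 3-keto group of sterol intermediates, had the most negative value of the 31. It stood at 14.6, 12.8 and 10.9 CPM in control, at 7.43, 6.92 and 7.67 CPM in the NELFE knockdown and at 7.71 and 7.21 CPM in the NELFB knockdown. Over both it fell by 42.2%. The spread between control libraries was wider than that between all knockdown libraries (log2 fold change -0.79, standard error 0.12, edgeR adjusted p = 0.000969). It has 2 annotated pseudogenes, which held at most 0.0293 CPM in control. Reads that align to several places are not counted, so this level does not show whether HSD17B7 lost reads shared with them. DHCR7, which completes cholesterol by reducing 7-dehydrocholesterol, stood at 113, 114 and 110.4 CPM in control, at 78.1, 77.8 and 75.1 CPM in the NELFE knockdown and at 84.6 and 86.5 CPM in the NELFB knockdown. It varied little within each group and had the lowest adjusted p of the members (log2 fold change -0.48, standard error 0.07, edgeR adjusted p = 0.000626).

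SC5D, the sterol C5-desaturase that supplies the substrate of DHCR7, went the other way. It stood at 60.1, 69.3 and 69.4 CPM in control, at 78.0, 75.2 and 81.8 CPM in the NELFE knockdown and at 100.04 and 86.2 CPM in the NELFB knockdown. All knockdown libraries were above all control libraries, with a log2 fold change of 0.35 (standard error 0.10, edgeR adjusted p = 0.0212), and the call was lost without control 1 or without control 2. LSS, NSDHL and EBP had log2 fold changes of -0.08, -0.13 and -0.19 with adjusted p of 0.355, 0.253 and 0.0972 (edgeR). LSS, the lanosterol synthase, ranged from 166 to 183 CPM in control and from 159 to 176 CPM in the knockdowns, so that the groups overlapped. TM7SF2, a sterol C14-reductase, had a log2 fold change of 0.28 (edgeR adjusted p = 0.122), which became 0.38 (edgeR adjusted p = 0.0101) without control 1 and NELFE knockdown 3. CYP51A1 had -0.52 (edgeR adjusted p = 0.0926) at 2.92 to 3.76 CPM in control, with the overlap given above. With the replicate number as a block, CYP51A1 was called lower (edgeR adjusted p = 0.0422).

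Among the SREBP regulators and the sterol carrier, 3 of 6 members fell. INSIG1, which retains SCAP and SREBP in the endoplasmic reticulum, stood at 84.9, 60.1 and 69.9 CPM in control, at 45.0, 42.8 and 40.5 CPM in the NELFE knockdown and at 50.6 and 45.8 CPM in the NELFB knockdown. Control varied most, and still every knockdown library lay below it, with a log2 fold change of -0.67 (standard error 0.11, edgeR adjusted p = 0.00147), and it fell by 37.2%. Its relative INSIG2 stood at 21.8 to 23.6 CPM in control and 19.4 to 24.8 CPM in the knockdowns, with a log2 fold change of 0.02 (edgeR adjusted p = 0.883). STARD4, a soluble carrier of cholesterol between membranes, ranged from 56.7 to 63.0 CPM in control and from 43.5 to 54.9 CPM in the knockdowns, and fell by 0.31 on the log2 scale (standard error 0.08, edgeR adjusted p = 0.0167).

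The genes of the SREBP factors themselves varied widely within the groups. SREBF1 stood at 116, 90.6 and 82.9 CPM in control, at 75.8, 70.2 and 56.6 CPM in the NELFE knockdown and at 75.3 and 86.1 CPM in the NELFB knockdown. NELFB knockdown 2 overlapped control 3. The log2 fold change was -0.41 (standard error 0.13, edgeR adjusted p = 0.0425), and it became -0.25 (edgeR adjusted p = 0.163) without control 1 and -0.18 (edgeR adjusted p = 0.0894) without control 1 and NELFE knockdown 3. The call was also lost without control 2, NELFE knockdown 1, NELFE knockdown 2 or NELFB knockdown 1, and when at least 10 counts were required in every library. SREBF2 stood at 321, 274 and 236 CPM in control, at 269, 261 and 203 CPM in the NELFE knockdown and at 256 and 261 CPM in the NELFB knockdown. These groups overlapped (log2 fold change -0.15, standard error 0.11, edgeR adjusted p = 0.351). With the replicate number as a block, SREBF2 was called lower (log2 fold change -0.19, edgeR adjusted p = 0.0193). SCAP stood at 109, 101 and 95.4 CPM in control, at 119, 117 and 90.6 CPM in the NELFE knockdown and at 113 and 123 CPM in the NELFB knockdown. NELFE knockdown 3 was the lowest library of all for SCAP, and the log2 fold change of 0.15 (edgeR adjusted p = 0.29) became 0.21 (edgeR adjusted p = 0.0319) without it.

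In fatty acid synthesis, 5 of 7 members fell. SCD, which introduces the first double bond into saturated fatty acids and was the member with the highest level, stood at 1004, 977 and 928 CPM in control, at 742, 709 and 623 CPM in the NELFE knockdown and at 743 and 720.0 CPM in the NELFB knockdown. It fell by 27.0% over both knockdowns, with no overlap (log2 fold change -0.45, standard error 0.07, edgeR adjusted p = 0.00147). FASN, the fatty acid synthase, stood at 764, 653 and 630 CPM in control, at 590, 556 and 413 CPM in the NELFE knockdown and at 449 and 580.3 CPM in the NELFB knockdown. It did not overlap either but varied within each group, with a log2 fold change of -0.40 (standard error 0.12, edgeR adjusted p = 0.0314) that became -0.24 (edgeR adjusted p = 0.0906) without control 1 and NELFE knockdown 3. The FASN call was also lost without control 1 alone, control 2 or NELFB knockdown 1. ACACA, the acetyl-CoA carboxylase before FASN, had -0.30 (standard error 0.08, edgeR adjusted p = 0.0194), and its call was lost without control 1 or without control 2.

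FADS1 and FADS2, the desaturases of polyunsaturated fatty acids, overlap each other on chromosome 11 on opposite strands, and the counts do not use strand. FADS1 stood at 274, 294 and 256 CPM in control, at 219, 225 and 188 CPM in the NELFE knockdown and at 201 and 201 CPM in the NELFB knockdown. FADS2 stood at 368, 428 and 392 CPM in control, at 320.0, 322 and 299 CPM in the NELFE knockdown and at 284 and 301 CPM in the NELFB knockdown. Both were lower in every knockdown library, with log2 fold changes of -0.41 (edgeR adjusted p = 0.00333) and -0.37 (edgeR adjusted p = 0.00339). ACLY, which makes cytosolic acetyl-CoA for both pathways, was at 510 to 576 CPM in control and 507 to 564 CPM in the knockdowns, with a log2 fold change of -0.03 (edgeR adjusted p = 0.763). ELOVL6, which extends palmitate, had -0.04 (edgeR adjusted p = 0.686).

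**Figure D2:**
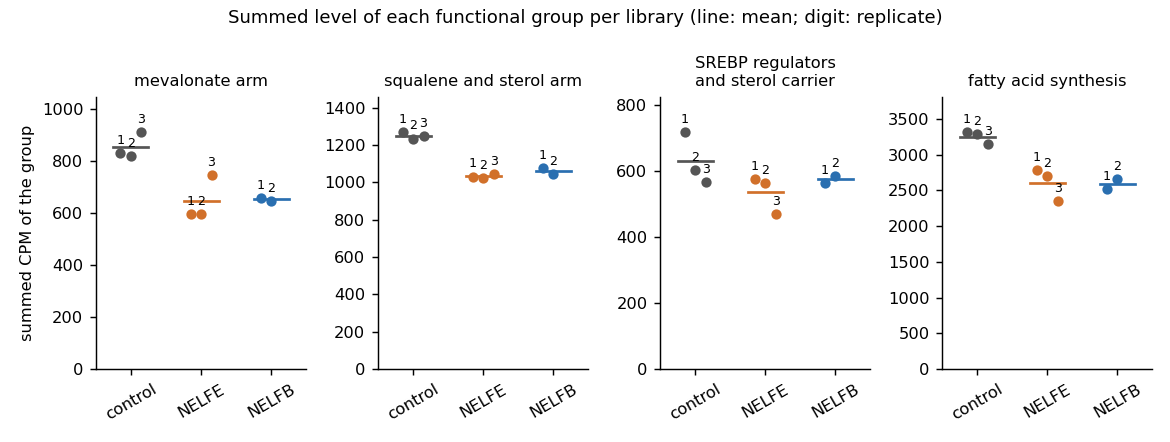
Summed CPM of the members of each functional group per library. Points are libraries with their replicate number, lines are group means and each axis starts at 0. In the squalene and sterol arm the knockdowns lie between 1022 and 1080 CPM and control between 1235 and 1269 CPM; in the mevalonate arm NELFE knockdown 3 is the highest knockdown library, and in the regulators and fatty acid synthesis it is the lowest.

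Summed over all 31 members, control libraries held 5986 ± 134 CPM (SD, n = 3). The sum was 4825 ± 199 CPM (SD, n = 3) after NELFE knockdown and 4876 ± 84.7 CPM (SD, n = 2) after NELFB knockdown, or 80.6% and 81.5% of control. The mevalonate arm stood at 75.7% and 76.4% of control, the squalene and sterol arm at 82.5% and 84.9%, the regulators and carrier at 85.1% and 91.3%, and fatty acid synthesis at 80.3% and 79.6%. Only in the group of regulators did the summed levels of knockdown and control libraries overlap. In bulk RNA, fewer cells with a transcript and less RNA per cell cannot be told apart. NELFE knockdown 3 was the highest of the 5 knockdown libraries for 4 of the 7 mevalonate genes (ACAT2, HMGCS1, IDI1 and FDPS) and the lowest for 5 of the 7 fatty acid genes and 4 of the 6 regulators. Its summed level was 746 CPM for the mevalonate arm beside 595 CPM in both other NELFE knockdown libraries, and 2346 CPM for fatty acid synthesis beside 2791 and 2695 CPM.

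The knockdowns were then compared with control separately, and with each other, in a model of all 3 groups. In the NELFE knockdown 16 members fell and 0 rose, while 7.04% of the 16852 tested genes fell and 7.92% rose. DESeq2 called 18 lower and 0 higher, and at an unadjusted p under 0.05 edgeR had 19 lower and 1 higher. In the NELFB knockdown 13 members fell and SC5D rose, while 8.88% of tested genes fell and 10.6% rose. The median log2 fold change of the members was -0.37 in the NELFE and -0.31 in the NELFB knockdown. Both comparisons use the same control libraries. The 13 genes called lower in both were HMGCS1, MVD, IDI1, FDPS, FDFT1, SQLE, MSMO1, HSD17B7, DHCR7, INSIG1, SCD, FADS1 and FADS2, and ACACA, MVK and SREBF1 passed the test in the NELFE knockdown alone. Without control 1 and NELFE knockdown 3, 20 members fell in each knockdown, and 2 (TM7SF2 and SCAP) rose in the NELFE and 3 (TM7SF2, SC5D and SCAP) in the NELFB knockdown. Of all tested genes, 18.4% then fell and 17.6% rose in the NELFE knockdown, and 20.4% fell and 21.1% rose in the NELFB knockdown. The NELFE count of 16 became 9 without NELFE knockdown 2, and 10 without control 2 or without NELFE knockdown 1. Of its calls, those of IDI1, SREBF1 and ACACA passed in 2, 1 and 1 of the 8 comparisons that left out a library. The NELFB count rested on both of its libraries: without NELFB knockdown 1 only MSMO1 passed, and without NELFB knockdown 2 only DHCR7 and FADS2 were called lower.

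Between the knockdowns no member passed the test in either direction, while 0.237% of tested genes were higher and 0.0771% lower in the NELFE knockdown. None passed without control 1 and NELFE knockdown 3 either, where 0.705% of tested genes were higher and 1.08% lower. DESeq2 also called 0, and 2 members had an unadjusted p under 0.05 in edgeR. These were SC5D, with a log2 difference of -0.25 (standard error 0.10, edgeR adjusted p = 0.897), lower in the NELFE knockdown, and INSIG2, with 0.23 (standard error 0.10, edgeR adjusted p = 0.971). The differences of all 31 lay between -0.34 (CYP51A1) and 0.23 (INSIG2). That none passed does not show that the knockdowns act alike on these genes.

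**Figure D3:**
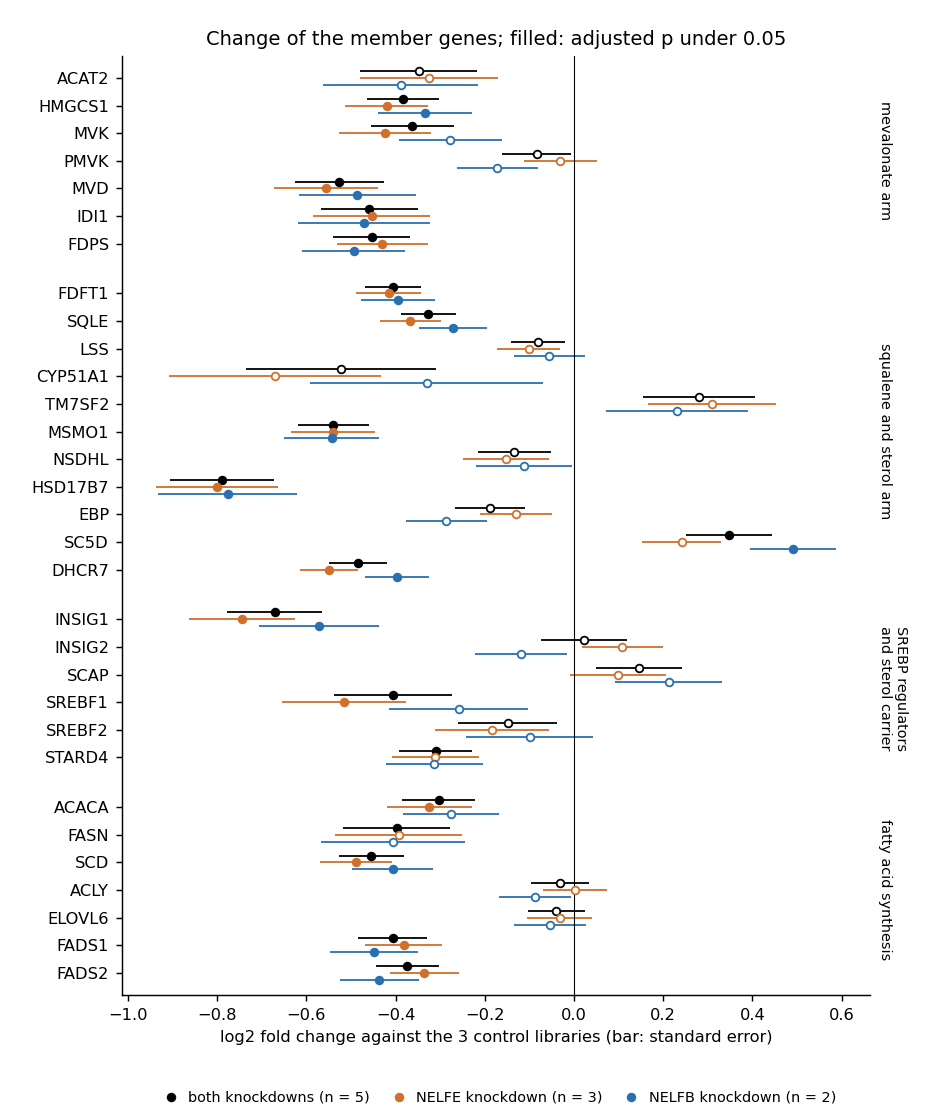
Log2 fold change of each member against the 3 control libraries, for both knockdowns together (black), NELFE (orange) and NELFB (blue), with standard errors as bars. Filled points have an edgeR adjusted p under 0.05. HSD17B7 (-0.79) and INSIG1 (-0.67) lie farthest to the left and SC5D (0.35) farthest to the right in the comparison of both knockdowns.

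The wider list of 45 genes around the pathway had a median near 0. All 45 were tested over both knockdowns, and 5 fell, close to the 12.7% of all tested genes. This list too was chosen with earlier results of these data known. Taken singly, the NELFE knockdown lowered 1 of them (MID1IP1) and the NELFB knockdown 3 (PDSS1, MID1IP1 and ACSL1). Their median log2 fold change was -0.00, with 23 below 0 and 22 above. The genes that fell were PDSS1 (-0.44, edgeR adjusted p = 0.0306) and COQ2 (-0.25, edgeR adjusted p = 0.0315), which make ubiquinone from isoprenoids, TMEM97 (-0.32, edgeR adjusted p = 0.0206) and SCARB1 (-0.21, edgeR adjusted p = 0.037), which act in sterol trafficking and lipoprotein uptake, and ACSL1 (-0.23, edgeR adjusted p = 0.025), which activates fatty acids. None of these 5 kept its call in all 8 comparisons that left out a library. None of the 5 genes of the LXR arm and sterol efflux passed in the main edgeR comparisons, which used no replicate block. DESeq2 called ABCG1, a sterol exporter with 3 to 13 reads per control and 6 to 39 per knockdown library (DESeq2 adjusted p = 0.0358, edgeR adjusted p = 0.0589). Its control libraries alone would not have passed the low-count filter of edgeR, so no call of ABCG1 is taken as a result. ABCA1, another sterol exporter, which like ABCG1 is named after its values were seen, stood at 22.4, 18.95 and 12.2 CPM in control, at 36.9, 33.0 and 13.6 CPM in the NELFE knockdown and at 37.6 and 32.047 CPM in the NELFB knockdown. NELFE knockdown 3 overlapped control (log2 fold change 0.78, standard error 0.33, edgeR adjusted p = 0.113). With the replicate number as a block, edgeR called ABCG1 (adjusted p = 0.00406) and ABCA1 (adjusted p = 0.000487) higher over both knockdowns. Of the 8 comparisons that left out a library, 2 called ABCG1 and 1 called ABCA1.

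MID1IP1, which promotes the activity of acetyl-CoA carboxylase, was the only gene of the wider list that differed between the knockdowns. It stood at 194, 172 and 184 CPM in control, at 99.6, 93.9 and 97.3 CPM in the NELFE knockdown and at 1.70 and 1.45 CPM in the NELFB knockdown. The log2 fold change was -0.92 in the NELFE knockdown (edgeR adjusted p = 0.000172) and -6.86 in the NELFB knockdown (edgeR adjusted p = 7.26e-10). The NELFB guide RNA and a site inside MID1IP1 on chrX:38804055-38804076 (GRCh38, minus strand) are shown because they share the 11 bases next to the PAM, set in capitals. The site lies 2606 bases from the nearest MID1IP1 start and 182 bases from the nearest start of the antisense gene MID1IP1-AS1. Binding of dCas9-KRAB there was not measured, and the counts do not separate strands.
NELFB guide RNA: gccgagctGGAGGGCGCCG
Site in MID1IP1 with its PAM: gggctgagGGAGGGCGCCGggg
PAM-proximal matches close to annotated starts were then looked for at the members. Within 500 bases of the annotated starts of the 31 members, 1 member (MVK) had a match of 7 or more PAM-proximal bases for the NELFE guide RNA, against 1.075% of 16645 tested genes, and none had 9 or more, against 0.282%. For the NELFB guide RNA, 8 members (25.8%; FADS1, FDFT1, HMGCS1, INSIG1, LSS, SCD, SREBF2 and TM7SF2) had a match of 7 or more bases, against 15.8% of tested genes. Of these, 1 member (SCD) had a match of 9 or more bases, against 0.997% of tested genes, and no member had 11 or more, against 0.264%. A site as far from a start as the one in MID1IP1 lies outside these windows, so matches of that kind at the members were not looked for.

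The promoters of the members were compared with all promoters for short motifs on both strands. RefSeq windows, from 250 bases before to 50 bases after the start, were used for the 27 members in the table, which have 37 windows. ACAT2, FDFT1, SQLE and FASN are named only. An NF-Y box (CCAAT) was in 24 of 37 windows (64.9%), against 34.6% of all 34943 windows and 34.4% of the windows of tested genes. By gene, 20 of 27 members (74.1%) had it in a window, against 42.9% of tested genes. It was in 13 of the 15 members with a window that fell, and in SC5D, which rose. MSMO1 holds 4 in the stretch printed above. A GC box (GGGCGG) was in 33 of 37 windows (89.2%), against 44.9% of all windows and 65.3% of those of tested genes. The E-box (CACGTG) was in 5 windows (13.5%, against 7.2% of all windows and 9.2% of those of tested genes), those of INSIG1, LSS, SC5D and SCAP, or in 4 of 27 members (14.8%) against 12.5% of tested genes. The sterol regulatory element in the form TCACCCCAC was in 1 window, that of SREBF2, against 0.4% of all windows, and the looser form TCACNCCAC, which covers the other, was in the same window only, against 1.1% of all. A match is a description of the letters and not a measured binding site, and no match says nothing of the factor. The genes were picked as a pathway, with earlier results of these data known, so the shares describe that choice and no knockdown.

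**Figure D4:**
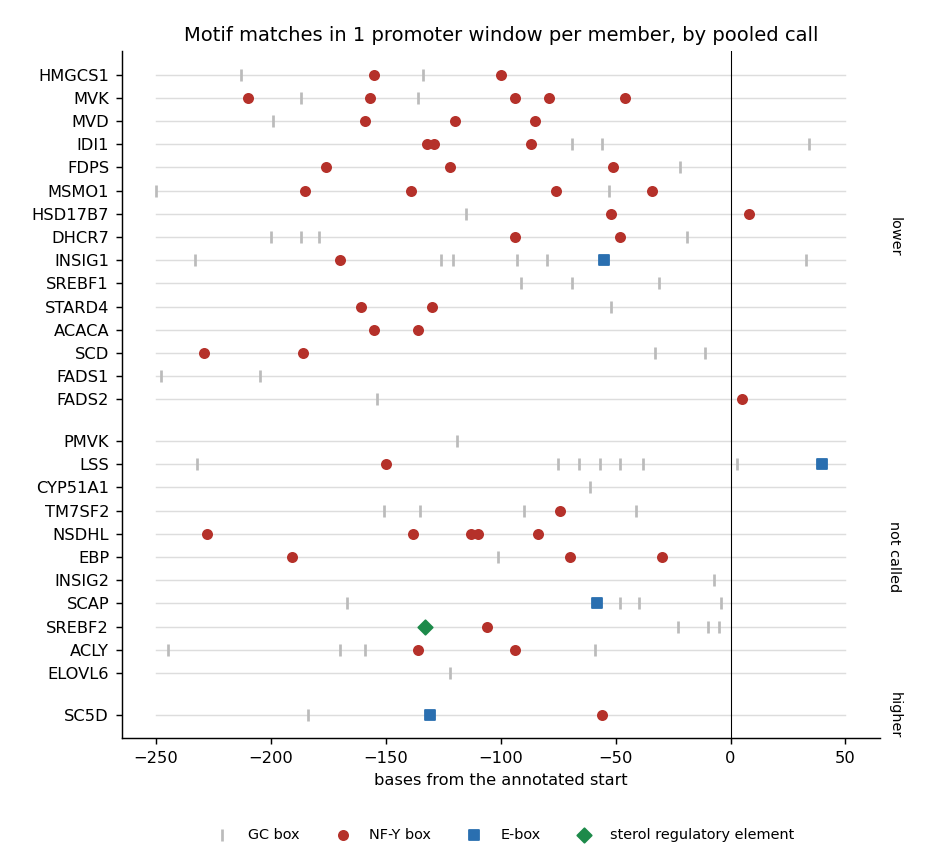
Position of motif matches, in bases from the annotated start, in 1 RefSeq window for each of 27 members, ordered by whether the gene fell, did not pass the test or rose over both knockdowns. Where a member has several windows, the one with most NF-Y boxes is drawn; NF-Y boxes (red) are drawn in 13 of the 15 members that fell.

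The cell identity of the libraries was checked on 14 marker genes. HAP1 derives from a leukaemia line but grows attached, and PTPRC, SPI1, ITGAM and HBG2, which mark blood cells, were at 0 in most libraries and at most 0.166 CPM. GATA1 reached 0.387 CPM. CD34, a progenitor marker, was at 0.120, 0.133 and 0.0437 CPM in control, at 0.664, 0.258 and 1.30 CPM in the NELFE knockdown and at 2.78 and 0.896 CPM in the NELFB knockdown. These were 1 to 3 reads per control library and 6 to 67 per knockdown library. CD34 passed the filter on low counts only through the knockdown libraries. Its call as higher (edgeR adjusted p = 0.0142) is therefore not taken as a result, and at so few reads a fold change is not given. Of the epithelial markers, CDH1 and EPCAM stayed at most at 0.280 CPM, and KRT8 and KRT18 rose, with log2 fold changes of 1.65 (edgeR adjusted p = 0.00913) and 0.56 (edgeR adjusted p = 0.0174). Of the mesenchymal markers CDH2 rose (0.61, edgeR adjusted p = 0.00214), FN1 fell (-0.29, edgeR adjusted p = 0.0328) and VIM had 0.01 (edgeR adjusted p = 0.976). LGALS1 was at the threshold (-0.76, edgeR adjusted p = 0.05) and passed in 2 of the 8 comparisons that left out a library. Summed, the 4 epithelial markers stood at 32.8, 31.2 and 33.7 CPM in control, with KRT18 the most abundant, and at 147% of control in the NELFE and 191% in the NELFB knockdown. The 4 mesenchymal markers, led by VIM, stood at 107% and 113%. Their sums overlapped: control ranged from 527 to 662 CPM, with NELFE knockdown 1 and 2 at 591 and 587 CPM and NELFB knockdown 2 at 655 CPM. Whether the changes of single markers have a part in the lower levels of the sterol and fatty acid genes was not tested.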

How the data were processed

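Polyadenylated RNA of 3 control, 3 NELFE knockdown and 2 NELFB knockdown libraries was read single-end over 65 bases. The values the authors deposited are raw counts per gene of Gencode v24 on GRCh38, counted without strand by STAR 2.5.4a (FastQC 0.11.6; versions from the submitters' processing notes) and not normalised. Reads that align to several places or overlap several genes are not in these counts. Library totals of 22037423 to 24444185 counts limit the precision. The study's methods describe the NELFE and NELFB replicates as independent. For the control replicates this is not stated in the sources used here, and their spread may be technical.

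GENCODE v44 supplied symbols, coordinates and exon lengths by identifier and matched 97.4% of genes with reads and 99.9% of counts. Tests used edgeR 4.0.16 under R 4.3.3, with TMM normalisation, the filterByExpr filter, a quasi-likelihood fit with robust dispersion and p-values adjusted by Benjamini-Hochberg over all tested genes, and calls were made at an adjusted p under 0.05. Both knockdowns were compared with control together, and singly in a model of 3 groups. Values per library are TMM-normalised CPM. TPM were computed from counts and exon lengths. All 31 members are named, those of the wider list that were called over both knockdowns or between them, and the markers. A result of the wider list is not reported here. Members and lists were chosen with earlier results of these data known.

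Alternatives were DESeq2 1.42.0, its size factors in edgeR, no filter, at least 10 counts in every library, a prior count of 2, other samples in the fit, the replicate number as a block, and each library left out. Leaving out control 1 and NELFE knockdown 3 together was added after the data were seen. Promoter windows are from RefSeq (GRCh38.p14). The scripts were tested on simulated data.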

Additional observations from a re-analysis of the deposited data

Results flagged for a closer look

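MID1IP1 differed between the knockdowns in the direct test, with a log2 difference of 5.94 (standard error 0.13, edgeR adjusted p = 2.71e-09), higher in all 3 NELFE than in both NELFB knockdown libraries. No other gene of the members or of the wider list did. The targets of the guide RNAs also differed, as their labels say: NELFE by -4.52 and NELFB by 4.44 on the same log2 scale.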

How the results depend on the processing

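Over 16 alternatives, the 31 log2 fold changes of the pooled comparison gave 496 values, of which 466 kept their side of the threshold, 16 lost a call and 14 gained one. Of the values not called, 6 changed sign (ACLY, INSIG2 and SREBF2), and no called value did. All 18 members called lower kept the call with DESeq2 and with the replicate block, 17 with at least 10 counts in every library (not SREBF1), and 14 kept it whichever library was left out (not MVK, SREBF1, ACACA and FASN). The cause of the changes was not tested.

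With control 1 and NELFE knockdown 3 left out, 3278 genes rose and 3347 fell over both knockdowns (3 members rose), 2922 and 3058 in the NELFE knockdown (2 members rose), 3506 and 3382 in the NELFB knockdown (3 members rose, 20 fell), and between the knockdowns 117 genes were higher in NELFE-depleted cells and 179 lower. The last comparison gave 66 higher and 95 lower without a filter, 36 lower with DESeq2, 8 lower with at least 10 counts in every library and 8 lower with only its own libraries.

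The replicate numbers share only a number: deviations of same-numbered control and NELFE libraries correlated at 0.347, 0.065 and 0.549, those of control and NELFB at -0.033 and -0.018 and those of NELFE and NELFB at 0.114 and 0.253. Of the 6 control and NELFE libraries 5 correlated best with their own number, a hint from the data and not from the design. With the replicate block, 2408 genes rose and 2355 fell in the NELFE knockdown (2 members, TM7SF2 and SC5D, rose), 2312 fell in the NELFB knockdown, and 69 were higher and 126 lower between the knockdowns. The block called 21 members lower over both knockdowns, 20 in the NELFE and 17 in the NELFB knockdown. Over both, ACAT2, CYP51A1 and SREBF2 were gained, the last with a log2 fold change of -0.19 (edgeR adjusted p = 0.0193). ABCG1 (edgeR adjusted p = 0.00406) and ABCA1 (edgeR adjusted p = 0.000487) were called higher over both. For ABCG1 the limit of few control reads given above holds here too.

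With each library left out in turn, the pooled comparison gave 1360 to 2526 genes higher and 1328 to 2599 lower, and 0 to 3 members higher and 15 to 20 lower. The NELFE knockdown gave 561 to 1620 and 429 to 1503 genes, and 0 to 1 and 9 to 16 members. The NELFB knockdown gave 380 to 2218 and 223 to 2098 genes, and 0 to 1 and 1 to 18 members, with the lowest without NELFB knockdown 1. Between the knockdowns there were 24 to 47 and 2 to 34 genes. With 1 NELFB library left, it is assumed to vary like the other groups.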
